A study of Mus musculus with 7 samples.

Results

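The endothelial cells described here are the cells of WT pancreas that the authors placed in the clusters they named Endothelial_1 and Endothelial_2. They numbered 2334 of the 10653 WT cells (21.9%, exact Clopper-Pearson 95% interval 21.1% to 22.7%, counting error only), in a series of 58473 cells from 7 mice. The 2 WT mice gave 1122 of 4327 cells (25.9%, 24.6% to 27.3%) and 1212 of 6326 cells (19.2%, 18.2% to 20.2%). Endothelial_1 held 1283 cells and Endothelial_2 held 1051. All mice were labelled C57BL/6 and 2 months old (the methods give a C57BL/6J.Ola.Hsd background for i4F mice), and the dissociated pancreas of each was made into a single 3′ library on the 10x Genomics platform. WT mice drank doxycycline at 1 mg/ml with 7.5% sucrose for 7 days, and so did the 3 i4F mice. Per the methods, i4F mice are heterozygous for a cassette that doxycycline switches on in all tissues and that encodes the 4 factors Oct4, Sox2, Klf4 together with c-Myc, and they carry the transactivator rtTA in the Rosa26 locus. The 2 caerulein mice were wild type and received caerulein at 100 µg/kg by 7 injections a day on 2 days, and their labels name no doxycycline. Doxycycline is therefore named for WT and i4F mice and not for caerulein mice. Where 2 values stand side by side below, the first is WT mouse 1 and the second WT mouse 2.

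Blood vessels are lined by endothelial cells, which receive vascular endothelial growth factor (VEGF) through the receptors Kdr and Flt1 and hold to each other through junction proteins such as Cdh5 and Pecam1. In the pancreas, capillaries of the islets and of the exocrine tissue are fenestrated, and the diaphragms of these pores are built of the protein that Plvap encodes. Arteries, capillaries and veins differ in the genes their lining expresses: Notch ligands and connexins mark arteries, whereas selectins and the chemokine-binding receptor Ackr1 mark post-capillary venules and veins, where leukocytes leave the blood.

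The endothelial cells held 2095947 and 2461759 UMIs (unique molecular identifiers, 1 per captured mRNA molecule), and values below are counts scaled to 1000000 UMIs of the named cells of a mouse (CPM). Folds between groups of WT cells were computed after adding 20 CPM to both sides, and they describe the cells without a test, because the clusters were made from the same counts. Depth differed between the clusters. A cell of Endothelial_1 had a median of 3528 and 2016 UMIs, and a cell of Endothelial_2 a median of 323.5 and 315 UMIs, which is 0.121 and 0.114 of the median of all cells of the same mouse. Cells with under 500 genes made up 89.6% and 86.1% of Endothelial_2, against 0.926% and 2.47% of Endothelial_1. The share of mitochondrial UMIs was 2.22% and 1.54% (median) in Endothelial_1 and 0.912% and 0.337% in Endothelial_2. Endothelial_2 made up 61.5% of the endothelial cells of mouse 1 and 29.8% of those of mouse 2. The WT libraries shared 9 barcodes (0.208% of the smaller library). Doublets were kept. Scrublet marked 41 endothelial cells of mouse 2 (3.38%) and none of mouse 1, where it marked 0.0462% of all cells and had not worked. Of the caerulein endothelial cells it marked 62 (11.1%) and 21 (7.61%). Of those of the i4F mice it marked 5, 20 and 0, and in i4F mouse 3 it marked no cell at all.

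The 5 genes that mark the endothelium were high in these cells and low in the sum of all other cells. Pecam1 (chr11:106654217-106750628 of mm10), an adhesion molecule of the junction, was at 1611 and 1438 CPM in the endothelial cells and 18.8 and 15.2 CPM in all other WT cells. Cdh5 (chr8:104101625-104144511), VE-cadherin, was at 961 and 757 against 9.57 and 7.71 CPM. Kdr (chr5:75932827-75978458), VEGF receptor 2, was at 1552 and 1768 against 15 and 19.5 CPM. The fenestral diaphragm gene Plvap (chr8:71497765-71511752) was at 1354 and 2620.1 against 36.5 and 58.4 CPM. The sialomucin gene Emcn (chr3:137341067-137432185) was at 2575 and 2496 against 18.7 and 22.4 CPM. The log2 ratio of the summed CPM of the 5 genes was 6.09 and 5.99 (mean 6.04 ± 0.0704 SD, n = 2). Both clusters carried the markers: Pecam1 was at 1684 and 1469 CPM in Endothelial_1 and 1273 and 1104 CPM in Endothelial_2, and Emcn at 2757 and 2573 CPM in the first and 1740.2 and 1669 CPM in the second. At least 2 of the 5 genes had a UMI in 64.1% and 86.3% of the endothelial cells and in 2.75% and 2.91% of the other cells. At 1000 UMIs per cell, which left out 651 and 420 shallower endothelial cells, Pecam1 was seen in 80.0% and 74.7% of the endothelial cells (59.4% and 75.6% of all, unthinned). In ductal cells, which should lack it and give the level of free RNA, it was seen in 1.04% and 0.524%. Plvap was seen in 68.8% and 89.9% of the thinned endothelial cells and also in 9.83% and 10.2% of the cluster Quiescent_Pancreatic_Stellate_1. This was above the 0.745% and 1.05% of ductal cells. Among the clusters outside, the one named Lymph_nodes, which held the lymphatic endothelial cells, came closest to the endothelial clusters in Pecam1, Cdh5, Kdr and Emcn, as the plot of the 5 genes by cluster shows.

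**Figure D1:**
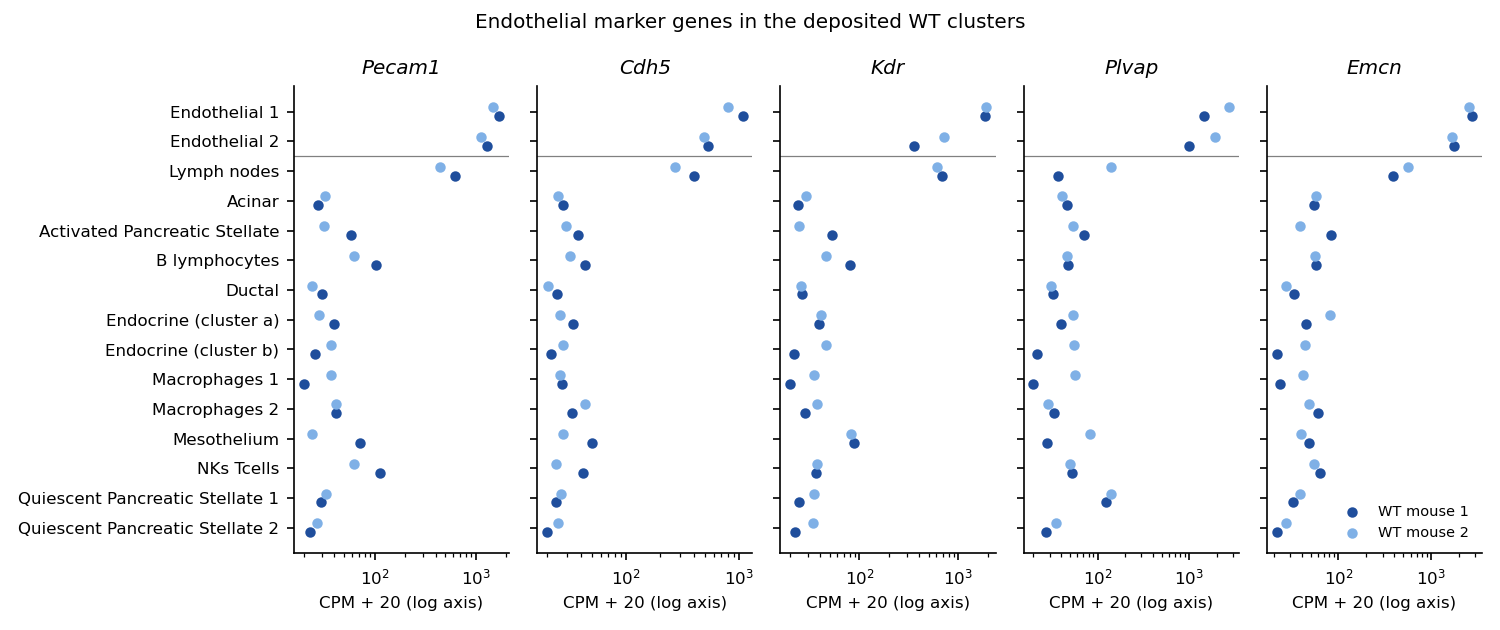
Level of the 5 marker genes in each deposited WT cluster (horizontal, log axis of CPM with 20 added; dark points WT mouse 1, light points WT mouse 2; the grey line divides the endothelial clusters from the rest). Both endothelial clusters lie to the right of every other cluster for each gene except Kdr, which in Endothelial_2 lies below the lymphatic cluster named Lymph nodes in mouse 1 (336 against 658 CPM) and above it in mouse 2 (687 against 591 CPM).

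Of 2806 genes with at least 50 CPM in the endothelial cells of both mice, 581 (20.7%) were at least 2-fold, 230 (8.20%) at least 4-fold and 58 (2.07%) at least 10-fold above the other cells in both. The gene furthest above was Fabp4 (chr3:10204088-10208576), a fatty acid-binding protein of capillary endothelium and adipocytes, at 14508 and 16727 against 115 and 166 CPM, a fold of 108 and 90.0. Flt1 (chr5:147561604-147726011), VEGF receptor 1, followed at 2774 and 2529 against 16.5 and 16.2 CPM, a fold of 76.6 and 70.4. Ranked by the smaller of the folds in the 2 mice, the next genes were Emcn (59.3-fold), the phosphatase gene Ptprb (46), Kdr (44.9), the lipoprotein lipase anchor Gpihbp1 (44), Pecam1 (41.4), the secreted factor Egfl7 (38.1), Tmem252 (33.8) and the carbonic anhydrase gene Car4 (32.4). The adhesion G protein-coupled receptors Adgrf5 (29.4) and Adgrl4 (29.1), the water channel Aqp1 (28.2), Cdh5 (28.1), the monoglyceride lipase Mgll (27.9), the junction protein Esam (26.1), Plvap (24.3), Cyyr1 (24), the interferon-inducible GTPase Iigp1 (24) and Cd300lg (23.8) completed the first 20. These genes thus included endothelial receptors and junction proteins beside genes of capillaries and of lipid handling. Not all of them are shared with lymphatic endothelium, since Flt1 was at 34.2 and 44 CPM in the cluster Lymph_nodes. Over the 30 points given by the WT clusters in each mouse, the genes whose level ran closest to the mean of the 5 markers were Adgrl4 (Pearson's r = 0.986), Ptprb (0.984), Rtp3 (0.976), the retinol-binding protein Rbp7 (0.975) and Cyyr1 (0.975). The points of a mouse share a library, and the values are a description.

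The signalling lists were compared with all 7976 genes of at least 10 CPM in WT endothelial cells, of which 693 (8.69%) were at least 2-fold above and 253 (3.17%) at least 2-fold below the other cells in both mice. The median log2 ratio of all these genes was 0.06 and 0.08. The VEGF receptors, co-receptors and ligands had 6 of 7 such genes above and 1 below (median log2 ratio 2.52 and 2.27). Beside Flt1 and Kdr, the co-receptors Nrp1 (1089.7 and 1224 CPM, 11 and 10.3-fold) and Nrp2 (195 and 233 CPM, 5.75 and 4.81-fold) were above the other cells. In the angiopoietin and Tie pathway, which steadies the vessel wall, all 4 genes measured above 10 CPM were higher. They were the phosphatase Ptprb, the receptors Tie1 (309 and 272 CPM, 13.3 and 12-fold) and Tek (247 and 219.8 CPM, 7.37 and 6.87-fold), and the ligand Angpt2 at the low level of 38.2 and 32.1 CPM. Of the Notch pathway 5 of 11 genes were above. Among them were the receptor Notch1 (323 and 234 CPM), the ligands Dll4 (130.3 and 119 CPM) and Jag2 (75.9 and 58.9 CPM) and the target Hey1 (44.4 and 48.7 CPM). Of the BMP and TGF-beta pathway 6 of 18 were above and 1 below. The co-receptor Eng stood at 1194 and 1024 CPM (10.8 and 9.19-fold) and the BMP target Id1 at 719 and 654 CPM (10.2 and 9.13-fold), whereas Id3 (1169.9 and 1325 CPM against 797 and 874 CPM) and Ltbp4 (573 and 507 CPM against 261 and 253 CPM) were also high in other cells. The Wnt list had 3 of 7 above, the receptor Fzd4 (4.84 and 4.0-fold), its partner Tspan12 (5.92 and 6.0-fold) and Sox17 (3.02 and 4.02-fold). Ctnnb1, which most cells use, was at 354 and 329 CPM. Of the transcription factors 16 of 24 were above and 2 below. Epas1, a hypoxia-inducible factor of the endothelium, was at 683 and 541 CPM (10.4 and 9.24-fold). Mef2c stood at 490.0 and 459 CPM (6.78 and 5.54-fold) and Tcf4 at 950.4 and 788 CPM (4.51 and 3.99-fold), whereas Klf4 (576 and 372 CPM) did not stand above the other cells in both mice.

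Junctions, fenestrae and caveolae set what crosses the capillary wall, and genes of each were found. Of the adherens and tight junction genes 1 of 18 was at least 2-fold below and 9 were at least 2-fold above the other cells. They were led by Pecam1, Esam (1193 and 1081 CPM), Cdh5 and the adhesion molecule Icam2 (448 and 391 CPM, 17.1 and 14.4-fold). Of the genes of fenestrae, caveolae and transcytosis 8 of 14 were above and 1 below. The caveolar coat protein Cavin2 was at 2179 and 2156 CPM (9.83 and 12.2-fold), and the membrane-shaping protein Ehd4 at 472 and 1034 CPM (10.4 and 11.3-fold). Summed over the list of fenestrated capillaries, the level was 4938 and 6100.1 CPM in endothelial and 214 and 283 CPM in other cells. The lipid uptake list summed to 20342 and 22518 CPM against 1025 and 1123 CPM. Of its genes 7 of 14 were above and 1 below, with Fabp4 by far the most abundant. Gpihbp1 (1644 and 2108 CPM), Aqp1 (1476 and 953 CPM), Fabp5 (1004 and 1219 CPM, 12.9 and 13.5-fold) and the fatty acid receptor Cd36 (538 and 514 CPM, 15.9 and 12.4-fold) followed. Scavenger and clearance receptors were above in 6 of 8, including the HDL receptor Scarb1 (778 and 575 CPM, 20.7 and 18-fold), Cd93 (643 and 462 CPM) and Clec14a (552 and 582 CPM). Of the 14 listed, 3 had no UMI in these cells.

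The lists of blood clotting and vessel tone were compared in the same way. Of the haemostasis list 6 of 12 were above and 1 below. The anticoagulant receptor Thbd was at 607 and 436 CPM, the protease Adamts1 at 867 and 734 CPM, the matrix glycoprotein Mmrn2 at 467 and 314 CPM (18.8 and 13.5-fold) and the cyclooxygenase Ptgs1 at 230.4 and 167 CPM. Vwf, which encodes von Willebrand factor, was low, at 34.4 and 10.6 CPM. Of the vascular tone list 1 of 16 was below and 10 were above. Among them were the adrenomedullin receptor partner Ramp2 (845 and 848 CPM), Ramp3 (448 and 387 CPM), the endothelin-converting enzyme Ece1 (571 and 476 CPM) and the sphingosine 1-phosphate receptor S1pr1 (474 and 394 CPM, 17.9 and 14.4-fold). The leukocyte adhesion and recruitment list had 6 of 17 above and 3 below. Its highest genes were the sialomucins Cd34 (896 and 792 CPM) and Podxl (546 and 384 CPM, 18.6 and 14.8-fold) and the chemokine Cxcl12 (509.6 and 846 CPM). The inducible selectin Sele stood at 31.5 and 24.4 CPM.

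Of the basement membrane and matrix list 3 of 19 genes were at least 2-fold above and 2 below (8.69% and 3.17% of all genes), and the summed level was 9191 and 8859.5 CPM against 8218 and 9846 CPM. The collagen IV chains Col4a1 (1395 and 1233 CPM, 3.16 and 2.58-fold) and Col4a2 (605 and 781 CPM, 3.55 and 3.25-fold) were above. Sparc, a collagen-binding protein, was at 3692 and 3357 CPM against 3125 and 4180.2 CPM elsewhere, and Sparcl1 at 1247 and 1387 against 605 and 788 CPM. Among integrins 2 of 8 were above and 1 below. Those above were the collagen and laminin receptor subunits Itga1 (832 and 812 CPM, 14.2 and 15.4-fold) and Itga6 (442 and 274 CPM, 6.04 and 6.62-fold). Guidance and ephrin genes were above in 12 of 15. These included the receptors Robo4 (244 and 175 CPM) and Plxna2 (185 and 156 CPM) and the ligands Efnb1 (160.3 and 168 CPM) and Efna1 (148 and 143 CPM). Of the G protein-coupled receptor list 8 of 15 were above, with Adgrf5 (964 and 777 CPM) and Adgrl4 (709.9 and 791 CPM) furthest. Among ligands by which endothelium acts on its neighbours 5 of 15 were above and 2 below. Kitl, the ligand of the receptor Kit, was at 643 and 614 CPM (10.9 and 8.69-fold), and Esm1, a proteoglycan of growing vessels, at 386 and 286 CPM (18.9 and 13.7-fold). Hbegf was at 217 and 229.5 CPM against 548 and 340.0 CPM in other cells. Among the binding proteins of insulin-like growth factors, Igfbp3 (1191 and 593 CPM, 21.8 and 14.6-fold) and Igfbp7 (508 and 1056 CPM, 4.29 and 3.97-fold) were above, and Igfbp4 below at 80.2 and 178 against 337 and 1023 CPM.

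Lists of general cell states did not set the endothelium apart in the same way. Immediate early genes, which dissociation is known to induce, summed to 28171 and 34120.3 CPM in endothelial and 29184 and 30403 CPM in other cells. Of this list 2 of 19 were above and 2 below. Fos was at 4252 and 3584 CPM against 5775 and 5321 CPM and Junb at 3683 and 5719.9 against 3965 and 5384 CPM. Ier3, one of those above, was at 4145 and 6319 against 1222 and 1013 CPM. Heat shock genes summed to 12239 and 19407 against 11765 and 12717 CPM, with 1 of 13 above and 2 below. The chaperones Hsp90ab1 (5828 and 5196 against 3689.7 and 3665 CPM) and Hspa8 (1958 and 2002 against 1639 and 1494 CPM) differed by under 2-fold. Of the cell cycle list only 7 of 22 genes reached 10 CPM, and 1 was above, Mcm3 at 61.5 and 47.9 CPM. The p53 list had 2 of 14 above, Plk2 (541 and 500.5 CPM, 4.37 and 5.26-fold) and the cyclin-dependent kinase inhibitor Cdkn1a (1793 and 2133 CPM, 3.17 and 3.49-fold), and 4 below. Hypoxia and glycolysis genes (2 of 13 above, 1 below) lay near the median of all genes, at a median log2 ratio of -0.10 and 0.07. Acute phase and inflammation genes (2 of 16 above, 1 below) lay near it too, at 0.07 and 0.33.

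Interferon-stimulated genes, which cells switch on after interferon binds its receptors, stood above the other cells as a group. Of 32 listed genes 30 reached 10 CPM and 26 were at least 2-fold above the other cells in both mice (median log2 ratio 1.96 and 1.85). Together they had a sum of 10789.9 and 9450.1 CPM against 2187 and 1767 CPM. The highest were Ly6e (2201 and 1979 CPM, 2.29 and 2.94-fold), Iigp1 (1717 and 1465 CPM), the membrane tether Bst2 (1147 and 1011 CPM, 5.63 and 4.75-fold) and the ubiquitin-like modifier Isg15 (776 and 881 CPM, 6.11 and 5.86-fold). Genes of MHC and antigen presentation were above in 14 of 19 and below in 4. The most abundant were the class I genes H2-D1 (4742 and 4009 CPM, 4.32 and 3.52-fold), H2-K1 (3982 and 2647 CPM) and B2m (2822 and 1730.1 CPM) and the immunoproteasome subunit Psmb8 (665 and 596 CPM). Of the Ly6 family all 4 genes above 10 CPM were higher. Ly6a was at 3583 and 3718 CPM and Ly6c1 at 3849 and 3695 CPM, which is uncertain because Ly6c1 shares much sequence with Ly6c2. The promoters of 24 of the 32 interferon-stimulated genes were found in RefSeq (GRCm38.p6, 250 bases before to 50 after the start). Of these, 14 (58.3%) held TTTC, any 2 bases and TTTC, or on the other strand GAAA, any 2 bases and GAAA. These letters are the core of the interferon-stimulated response element, and 3.99% of 27025 genes held them. The motif searched on both strands can overlap itself, and a match is a description of letters and not of binding. The promoters of Ifit3, Isg15 and Rsad2, which are followed across the mice further on, are shown 5′ to 3′ with the matching letters in capitals. Those of Ifit3 (chr19:34583279-34583578, plus strand) begin 156 and 122 bases before the start. Those of Isg15 (chr4:156200769-156201068, minus strand) overlap and begin 78, 72 and 66 bases before it. That of Rsad2 (chr12:26456403-26456702, minus strand) begins 120 bases before it.
Ifit3: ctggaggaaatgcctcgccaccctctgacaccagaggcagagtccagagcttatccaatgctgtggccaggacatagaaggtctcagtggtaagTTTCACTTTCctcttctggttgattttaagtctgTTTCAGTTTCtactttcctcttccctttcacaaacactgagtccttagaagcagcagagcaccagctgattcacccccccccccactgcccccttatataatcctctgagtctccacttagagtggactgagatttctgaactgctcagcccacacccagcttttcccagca
Isg15: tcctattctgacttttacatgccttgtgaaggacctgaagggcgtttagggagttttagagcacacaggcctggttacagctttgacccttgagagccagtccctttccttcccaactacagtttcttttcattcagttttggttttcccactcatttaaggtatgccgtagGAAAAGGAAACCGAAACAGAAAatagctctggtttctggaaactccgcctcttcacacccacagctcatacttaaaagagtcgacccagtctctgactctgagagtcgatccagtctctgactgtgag
Rsad2: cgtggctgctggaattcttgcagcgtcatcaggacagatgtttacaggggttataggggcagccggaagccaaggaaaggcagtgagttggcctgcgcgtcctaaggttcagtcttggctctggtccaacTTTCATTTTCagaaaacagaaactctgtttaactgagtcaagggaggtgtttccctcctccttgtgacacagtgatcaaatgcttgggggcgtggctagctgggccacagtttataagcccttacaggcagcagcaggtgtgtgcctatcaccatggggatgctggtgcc
The promoter of Irf7 was searched in the same way and these letters were not in its window. A second search, for the letters CCGGAAG of an ETS motif on either strand, took the 20 genes furthest above the other WT cells. Promoters of 11 of them were found, and 1 (9.09%), that of Car4, held the letters, against 9.93% of 27025 genes.

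Genes that mark segments of the vascular tree were compared next. The capillary list summed to 19815 and 24112 CPM in the endothelial cells, the arterial list to 1095 and 899.8 CPM, the venous list to 1099 and 398 CPM and the lymphatic list to 92.1 and 86.1 CPM. Sums of different genes are not on a common scale, so they are read against other cells: 315 and 396 CPM for the capillary, 4842 and 3018 CPM for the arterial, 298 and 247 CPM for the venous and 546 and 603 CPM for the lymphatic list. Capillary genes were above the other cells in 8 of 10, led by Fabp4, Gpihbp1, Car4 (862 and 917 CPM) and Rgcc (341 and 2053 CPM). Arterial genes were below in 1 of 9 and above in 7, among them Stmn2 (150.3 and 106 CPM) and Dll4. The sum of the arterial list in other cells came from Clu, at 4694 and 2872 CPM there and 319 and 232 CPM in the endothelium. Venous genes were above in 5 of 10, among them Selp (239.5 and 66.6 CPM), Aplnr (139 and 76.4 CPM) and Lrg1 (147 and 61.3 CPM). The lymphatic genes Prox1 (4.29 and 2.84 CPM) and Lyve1 (1.43 and 3.25 CPM) were near 0, and the separate WT cluster Lymph_nodes held 38 and 50 cells. Of this list Flt4 (77.3 and 56.1 CPM) alone was above, and Ccl21a was below at 8.59 and 21.9 CPM against 301 and 394 CPM. Of the tip cell list 4 of 9 were above and 2 below, with Esm1 and Dll4 the highest.

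The 2 named clusters differed in the venous genes. Selp (chr1:164115264-164150026), P-selectin, was at 1113 and 555 CPM in Endothelial_2 and 49.4 and 20.9 CPM in Endothelial_1, a fold of 16.3 and 14.1. Ackr1 (chr1:173331886-173333750) was at 766 and 99.5 against 1.16 and 0.444 CPM, and Vcam1 at 603 and 384 against 27.3 and 11.1 CPM. Lrg1 was at 758 and 431 against 14.5 and 26.7 CPM, Vwf at 160.1 and 94.8 against 6.97 and 2.67 CPM and Sele at 123 and 171 against 11.6 and 10.7 CPM. Selp, Vcam1, Vwf and Sele encode adhesion proteins through which the vessel wall holds leukocytes or platelets. Of the 10 venous genes 7 (median log2 ratio of Endothelial_2 over Endothelial_1 2.82 and 1.94, against -0.18 and -0.12 for all genes) were at least 2-fold above in Endothelial_2 in both mice, against 92 (1.15%) of the 7976 genes. The summed list differed by a log2 ratio of 3.35 and 2.93 (3.14 ± 0.301 SD, n = 2). The capillary list differed by -0.20 and -0.45, and Fabp4, at 15144 and 13618 against 14370.1 and 17018 CPM, was high in both. In the other direction, Endothelial_1 carried more of several genes of VEGF and Notch signalling. Flt1 was at 3227 and 2678 CPM against 694 and 934 CPM, Kdr at 1817 and 1869.6 against 336 and 687 CPM and Notch1 at 368 and 248 against 117 and 75.8 CPM. Of the 7 VEGF genes 3 and of the 11 Notch genes 2 were at least 2-fold above in both mice, against 91 (1.14%) of all genes. General endothelial genes leaned the same way. The median log2 ratio of Endothelial_2 over Endothelial_1 was -0.66 and -0.62 for the 5 marker genes. It was -0.50 and -0.46 for the Notch list and -1.62 and -0.86 for the VEGF list, so the Notch list was no lower than the markers. The 10 genes furthest above in Endothelial_1, by the smaller fold, were Efnb1 (3.28), Hspa1a (3.08), Igfbp3 (2.84), Flt1 (2.83), Mcf2l (2.82), Notch1 (2.80), Kdr (2.67), Col4a2 (2.65), Snrk (2.63) and Ccdc85a (2.60). Those of Endothelial_2 were Selp (14.1), Vcam1 (13), Lrg1 (9.67), Nupr1 (7.56), Spink1 (6.38), Ackr1 (5.85), Vwf (5.07), Pla2g1b (4.77), Try10 (4.63) and Sele (4.52). Spink1, Pla2g1b and Try10 encode secretory products of acinar cells, and Nupr1 a stress-induced protein. The summed acinar list was at 5061 and 2427 CPM in Endothelial_2, 600.1 and 654 CPM in Endothelial_1 and 3109 and 2698 CPM in the cells that are not endothelial. Its part in the other differences between the clusters was not tested.

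**Figure D2:**
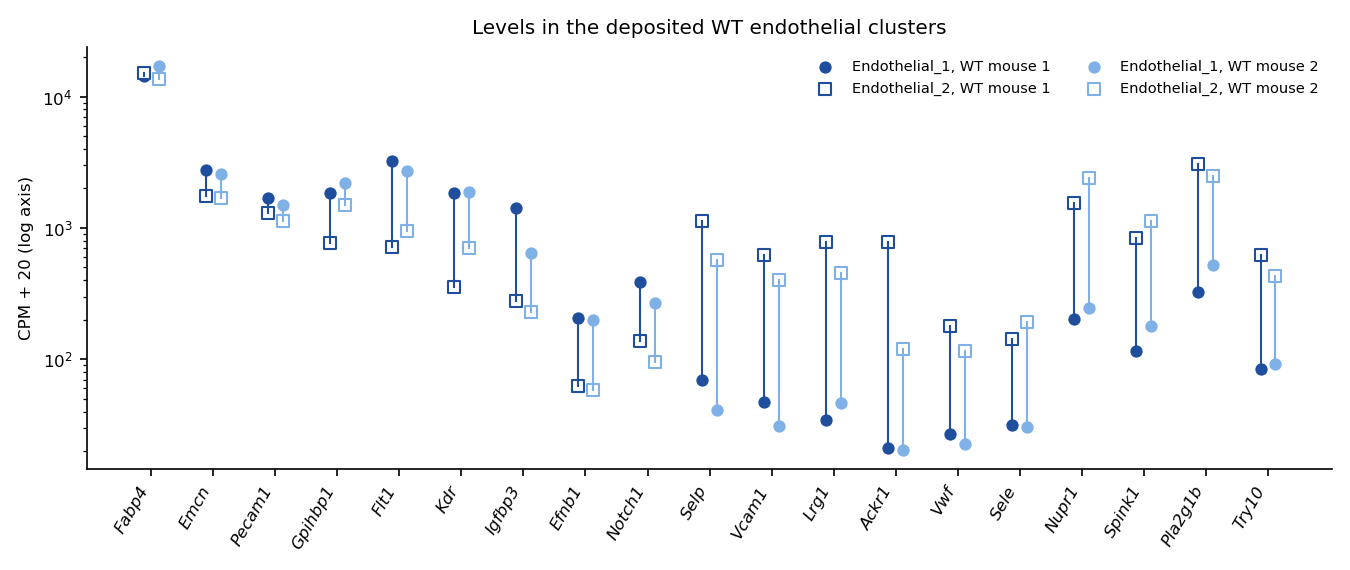
Level of 19 genes in Endothelial_1 (filled circles) and Endothelial_2 (open squares) of WT mouse 1 (dark) and mouse 2 (light), on a log axis of CPM with 20 added. Fabp4 lies between 13618 and 17018 CPM in all, Flt1, Kdr, Igfbp3, Efnb1 and Notch1 are higher in Endothelial_1, and the venous genes Selp to Sele and the acinar genes on the right are higher in Endothelial_2.

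Because the clusters differed in UMIs per cell, each cell was thinned to 300 UMIs, which kept all cells of Endothelial_1 and 387 of 690 and 197 of 361 cells of Endothelial_2. Selp was then seen in 10.3% and 4.06% of the cells of Endothelial_2 and in 0.231% and 0.353% of those of Endothelial_1 (unthinned 11.9% and 5.26%, and 2.31% and 1.76%). Ackr1 was seen in 11.4% and 3.55% against 0.231% and 0% (unthinned 10.9% and 3.32%, and 0.231% and 0.118%). Flt1 was seen in 58.3% and 55.2% of the thinned cells of Endothelial_1 and in 15.8% and 24.4% of those of Endothelial_2, and Kdr in 41.9% and 44.9% of the first and 8.53% and 19.8% of the second. Fabp4 was seen in 94% and 95.2% of Endothelial_1 and 92.2% and 89.3% of Endothelial_2, without a gap of that kind. The acinar gene Pla2g1b was seen in 12% and 17% of Endothelial_1 and 54.8% and 46.7% of Endothelial_2. At equal depth the clusters thus stood in the same order as in CPM for Selp, Ackr1, Flt1, Kdr and Pla2g1b.

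The endothelial cells were clustered again on their own, with the settings the methods give for all cells (SCTransform, 20 principal components, resolution 0.2), which gave 6 clusters, and 9 at a resolution of 0.5. The larger clusters were mostly of 1 mouse each. At 0.2 a cluster of 843 cells led by Igkc, Ighm and Hspb1 held 828 cells of mouse 2, although in these only 1.09% of the cells of mouse 2 had a UMI of Ighm and 7.13% one of Igkc. A cluster of 405 cells led by Cyp26b1 and Igfbp3 held 404 of mouse 1. A cluster of 731 cells held 679 of mouse 1, and a cluster of 284 cells led by Lars2, Ccl4 and Amy2a5 held 274 of mouse 2. A cluster mostly of 1 mouse may be that library and not a cell type. The cluster of 731 cells, 699 of them from Endothelial_2, was venous-like by 5 detected markers, and 5 of 8 acinar markers were detected in it too. It was led by Ackr1, Selp, Lrg1 and Vcam1, with the acinar or pancreatitis-associated genes Reg3b, Reg2 and Gp2 among its first 10. At 0.5 these parts came apart. A venous-like cluster of 194 cells (171 and 23, median UMIs 474 and 768) was led by Selp, Ackr1, Lrg1, Vcam1, Vwf, Lbp and Sele and held 187 cells of Endothelial_2. An arterial-like cluster of 52 cells (47 and 5, median UMIs 538 and 681) was led by Stmn2, Fbln5, Gkn3, Mgp, Tmem100, Kcne3 and Gja4 and held 50 cells of Endothelial_2. In the 47 cells of mouse 1 the connexin Gja4 was seen in 57.4% and the elastic fibre protein Fbln5 in 68.1%. A cluster of 482 cells (460 and 22) was led by Reg3b, Reg2, Gp2 and Nupr1 and 5 acinar markers were detected in it. In the same cells Pecam1 stood at 1200.2 CPM and Emcn at 2782 CPM, and the cluster is called here by its leading genes.

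Both resolutions gave the same cluster of 43 cells (8 and 35), led by Gsn, Dcn and Rgs5 and called here by these genes. All 11 pericyte and smooth muscle markers and all 8 stellate and fibroblast markers were detected in it (mean log2 fold over the other endothelial cells 3.12 and 2.76). Its cells had a median of 7726 and 5767 UMIs, and Scrublet marked 11 of them as doublets. Pecam1 was at 1035 CPM, so that endothelial, mural and stellate genes were found together in this cluster. They held 74.8% and 68.1% of the endothelial UMIs of Rgs5 (chr1:169655501-169695813), a regulator of G protein signalling of pericytes, and 85.0% and 96.4% of those of the pericyte receptor Pdgfrb. Without them Rgs5 was at 38.1 and 64.3 CPM, in place of 146 and 185 CPM. A last cluster of 28 cells (6 and 22) was led by Spp1, Ndufa3 and ribosomal genes. The plot of the clusters shows how each divides between mouse 1 and mouse 2.

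**Figure D3:**
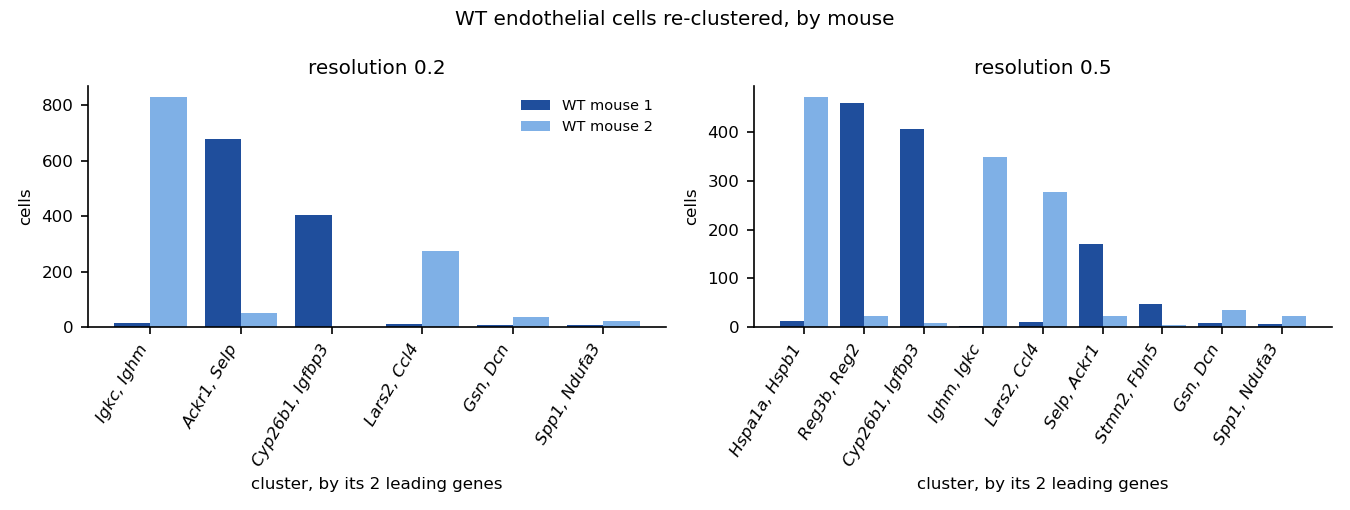
Number of WT endothelial cells of mouse 1 (dark bars) and mouse 2 (light bars) in each cluster of the re-clustering, at a resolution of 0.2 (left) and 0.5 (right), with each cluster named by its 2 leading genes. The 4 largest clusters at 0.2 hold 15 and 828, 679 and 52, 404 and 1, and 10 and 274 cells of mouse 1 and mouse 2.

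Genes of other cell types were low in the endothelial cells as a whole, with the exceptions given. The macrophage and monocyte list (10 genes) summed to 71.6 and 73.1 CPM against 1138 and 1993 CPM in other cells, and the pan-leukocyte list (6 genes) to 6.68 and 34.1 against 416 and 635 CPM. The stellate and fibroblast list summed to 202 and 478 against 14156 and 17815 CPM, the ductal list to 346 and 117 against 18807 and 9964 CPM and the endocrine list to 246 and 215 against 11974 and 14258 CPM. The acinar list, of which 8 of 26 genes are in the table, was closer to the other cells, at 1397 and 806 against 3109 and 2698 CPM. The B cell list was at 2.86 and 433 CPM, nearly all of it Ighm in mouse 2 (2.39 and 422 CPM), which was seen in 0.357% and 1.24% of the endothelial cells, so that few cells carried it.

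Mouse 1 and mouse 2 were set side by side without a test. Of 3509 genes with at least 50 CPM in the endothelial cells of either mouse, 29 (0.826%) were at least 4-fold higher in mouse 2 and 4 (0.114%) at least 4-fold higher in mouse 1. Of the 29, 14 were also at least 4-fold higher in the other cells of mouse 2. The small heat shock protein Hspb1 was at 129 and 4934 CPM in endothelial cells and 15 and 589.9 CPM in other cells. In endothelial cells of the i4F mice it was at 1234, 1211 and 2057 CPM and in those of the caerulein mice at 2147 and 594 CPM, so that WT mouse 1 was the lowest and WT mouse 2 the highest of the 7. The caveolar protein Cavin3 was at 37.7 and 606 CPM, and at 898, 846 and 479 CPM and 662 and 232 CPM in the i4F and caerulein mice. Igkc (10.5 and 771 CPM), Ighm (2.39 and 422 CPM) and Grrp1 (10.0 and 359 CPM) were the others of the 5 furthest in that direction. Igkc was seen in 1.96% and 6.68% and Ighm in 0.357% and 1.24% of the endothelial cells, and Grrp1 in 1.87% and 39.8%, so that the immunoglobulin values rest on few cells of mouse 2. In mouse 1 the retinoic acid hydroxylase Cyp26b1 (565 and 38.6 CPM), Reg3b (294 and 11.8 CPM), Reg2 (216 and 18.7 CPM), Ackr1 (138 and 8.94 CPM) and Spp1 (138 and 29.2 CPM) were higher. Reg3b and Reg2 were also higher in the other cells of mouse 1 (3032 and 26.9 CPM and 2220.1 and 77.3 CPM), whereas Ackr1 was not (7.47 and 8.42 CPM). Jun (1566 and 6724 CPM) and Hspa1a (1003 and 3385 CPM) differed in the same direction as Hspb1.

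How the WT endothelium differs from that of i4F and caerulein pancreas was compared over mice, which are the replicates. Endothelial cells were a larger share of the captured cells in WT. The WT mice had 25.9% and 19.2% (22.5% ± 4.79, SD, n = 2). The share was 3.17%, 5.44% and 8.72% in the i4F mice (5.78% ± 2.79, SD, n = 3) and 3.70% and 3.92% in the caerulein mice (3.81% ± 0.157, SD, n = 2). Neither condition overlapped WT. The difference was -16.8 percentage points for i4F (log2 ratio -1.96, p = 0.2 in a two-sided exact permutation test) and -18.7 points for caerulein (log2 ratio -2.56, exact permutation p = 0.333). With so few mice these p-values are the lowest possible and 0.05 cannot be reached. As a ratio of means the WT share was 3.90-fold and 5.92-fold higher, and both comparisons use the same 2 WT mice. Macrophages and B cells were a larger share of the cells in both conditions, with a log2 difference from WT of 2.37 and 2.67 in i4F mice (edgeR adjusted p = 0.0343 and 0.0328) and 3.10 and 2.10 in caerulein mice (edgeR adjusted p = 0.00721 and 0.0373). Ductal and endocrine cells were a smaller share in both, by -1.78 and -1.92 in i4F mice (edgeR adjusted p = 0.0417 and 0.0366). In caerulein mice they differed by -2.28 and -1.96 (edgeR adjusted p = 0.0288 and 0.0449). Cells in clusters named for NK and T cells were higher in i4F mice (log2 1.84, edgeR adjusted p = 0.0450), but not with the replicate number as a block (0.693, edgeR adjusted p = 0.209). For caerulein mice the log2 value was -10.2, a size that arises where almost no cell carries such a name. Each condition was clustered and named on its own, so this value is not read as a fall of these cells. Acinar and other stromal cells passed in neither comparison in the fit without a block. Among cells that are not immune the mean endothelial share was 24.5% in WT, 9.97% in i4F and 7.92% in caerulein mice, a ratio of 2.46 and 3.10. Without the low-UMI cluster Endothelial_2 the WT mice had 9.98% and 13.5%, a difference of -5.94 points from i4F and -7.91 points from caerulein. This took cells out of WT alone. Among cells of at least 500 genes in all mice the mean share was 17.8% in WT, 4.52% in i4F and 2.98% in caerulein mice. Those differences were -13.2 and -14.8 points. In edgeR on cell numbers the log2 difference was -1.96 for i4F (adjusted p = 0.0366, over 8 cell classes) and -2.56 for caerulein (adjusted p = 0.0189). With the replicate number as a block the endothelial differences were -2.42 (edgeR adjusted p = 0.000425) and -2.58 (edgeR adjusted p = 0.000293). The labels do not say that same-numbered mice form pairs. Only i4F mouse 3 has its number, so that mouse does not enter the difference of -2.42. Library names form 2 series. Within that of WT mouse 1 and the i4F mice the shares were 25.9% against 3.17% to 8.72%, and within that of WT mouse 2 and the caerulein mice 19.2% against 3.70% and 3.92%. A share among captured cells says nothing of how many endothelial cells an organ holds.

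**Figure D4:**
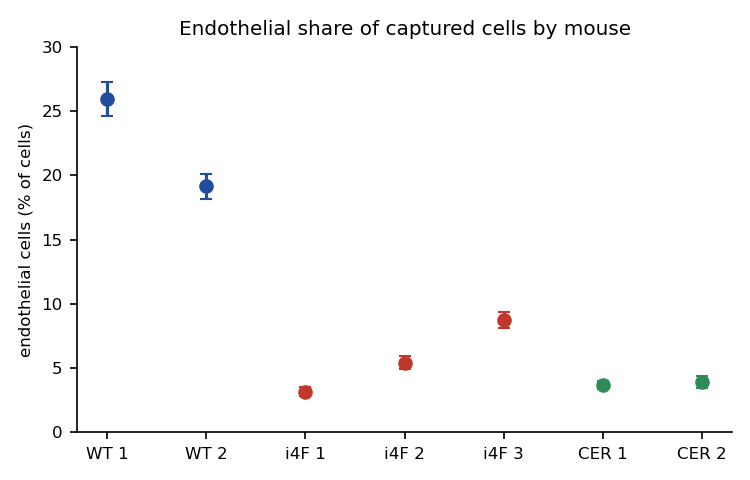
Endothelial cells as a percentage of all captured cells in each mouse (points), with exact 95% binomial intervals (bars, counting error only). The WT mice sit at 25.9% and 19.2%, above all i4F mice (3.17% to 8.72%) and both caerulein (CER) mice (3.70% and 3.92%).

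UMIs were then summed per mouse over the endothelial cells, and 8153 genes were tested in edgeR (quasi-likelihood, 3 groups, Benjamini-Hochberg adjustment, threshold 0.05). From WT to caerulein 289 genes were higher (3.54%) and 46 lower (0.564%), 4.11% in all. From WT to i4F 57 were higher (0.699%) and 9 lower (0.11%), 0.81% in all. The median log2 change of all genes was 0.00 and 0.02. These counts rested on single mice: without caerulein mouse 1, 23 genes were higher and 0 lower in caerulein (in the 3-group edgeR fit), without WT mouse 1 there were 97 and 9, without WT mouse 2 there were 208 and 17, without caerulein mouse 2 there were 212 and 6. Without i4F mouse 3, which enters the shared estimate of the spread, there were 582 and 363. For i4F they were 8 and 1 without WT mouse 1 and also without i4F mouse 1, 9 and 0 without i4F mouse 2, and 636 and 587 without i4F mouse 3. They were 23 and 2 without caerulein mouse 1, 28 and 2 without caerulein mouse 2, and 49 and 6 without WT mouse 2. Among the lists, interferon-stimulated genes were higher in WT than in caerulein mice most often, and none was called in i4F mice. Of its 30 tested genes, 8 fell in caerulein mice (Gbp3, Ifit3, Ifit3b, Irf7, Isg15, Rsad2, Usp18 and Xaf1) and none rose, against 0.564% of all genes called lower. In 28 of the 30 the change was negative, and the median was -2.21. In 28 both caerulein mice lay below both WT mice, which 31.5% of all genes did. Isg15 was at 776 and 881 CPM in WT, 352, 329 and 624 CPM in i4F and 159 and 260.3 CPM in caerulein endothelial cells. From WT to caerulein Isg15 changed by -1.93 ± 0.403 (SE) on the log2 scale (edgeR adjusted p = 0.0330). The groups did not overlap, and the caerulein mice were the lowest. Ifit3 was at 185 and 145 CPM in WT, 54.5, 67.9 and 137 CPM in i4F and 16.8 and 19 CPM in caerulein endothelial cells. From WT to caerulein Ifit3 changed by -3.10 ± 0.503 (SE) on the log2 scale (edgeR adjusted p = 0.0110). Rsad2 encodes the antiviral enzyme viperin. Rsad2 was at 478 and 364 CPM in WT, 184, 137 and 263 CPM in i4F and 71.3 and 98.4 CPM in caerulein endothelial cells. From WT to caerulein Rsad2 changed by -2.24 ± 0.373 (SE) on the log2 scale (edgeR adjusted p = 0.0123). Irf7 encodes a transcription factor of the interferon response. Irf7 was at 235 and 260.0 CPM in WT, 134, 226 and 248 CPM in i4F and 57 and 73 CPM in caerulein endothelial cells. From WT to caerulein Irf7 changed by -1.86 ± 0.361 (SE) on the log2 scale (edgeR adjusted p = 0.0233). The other calls were Gbp3 (-2.53), Usp18 (-2.25), Xaf1 (-1.55) and Ifit3b (-3.20, a near-identical copy of Ifit3 with which it can share reads). Iigp1 was at 1717 and 1465 CPM in WT, 95.3, 148 and 1037 CPM in i4F and 117 and 124 CPM in caerulein mice, and did not pass (edgeR adjusted p = 0.0927). In i4F mice none of the 30 passed in edgeR, and 28 were negative with a median of -0.86. In 16 all i4F mice were below both WT mice (21.9% of all genes). The log2 difference was -0.84 for Isg15 (edgeR adjusted p = 0.253) and -0.80 for Ifit3 (edgeR adjusted p = 0.295). The i4F mice were not alike, since the summed list was at 4104 and 4102 CPM in mice 1 and 2 and 8179 CPM in mouse 3, against 10789.9 and 9450.1 CPM in WT and 2788 and 3520.0 CPM in caerulein mice.

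In the other non-immune cells the list was lower and differed less between mice, where it summed to 2105 and 1642 CPM in WT, 1606, 1953 and 1928 CPM in i4F and 1049 and 1319 CPM in caerulein mice. Its sum in the endothelium was thus 5.13 and 5.75 times that of those cells in WT, 2.56, 2.10 and 4.24 times in i4F and 2.66 and 2.67 times in caerulein mice. In an edgeR test of the difference between the changes, with the mouse as a term, 15 of the 32 genes had a change that was more negative in the endothelium for caerulein and 17 of the 32 for i4F, whether or not they passed in the endothelium itself. None passed in the other direction. Of all 16281 genes 7.16% and 4.89% differed in either direction. The other non-immune cells pool several cell types, and the part of a change in their mix was not tested. Rsad2 fell by 2.43 more on the log2 scale (edgeR adjusted p = 8.44e-06) and Isg15 by 2.30 more (edgeR adjusted p = 0.000150) in caerulein endothelium. The labels name doxycycline for WT and not for caerulein mice, and the list's difference between them and any such difference in treatment cannot be told apart. When cells with a UMI of any of the 6 pan-leukocyte genes were left out (10 and 25 WT cells, 152 and 26 caerulein cells), Gbp3 alone of the 8 passed (-2.57, edgeR adjusted p = 0.0406), and the other 7 had edgeR adjusted p from 0.0985 to 0.155. Isg15 differed by -1.98 (edgeR adjusted p = 0.145) and Ifit3 by -3.28 (edgeR adjusted p = 0.0985). Without caerulein mouse 1 none of the 8 passed and Isg15 differed by -1.69, and with the library name series as a term Isg15 differed by -2.08 (edgeR adjusted p = 0.0788). Over 21 alternatives the 8 genes passed in between 12 and 19 and stayed negative in all 21.

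**Figure D5:**
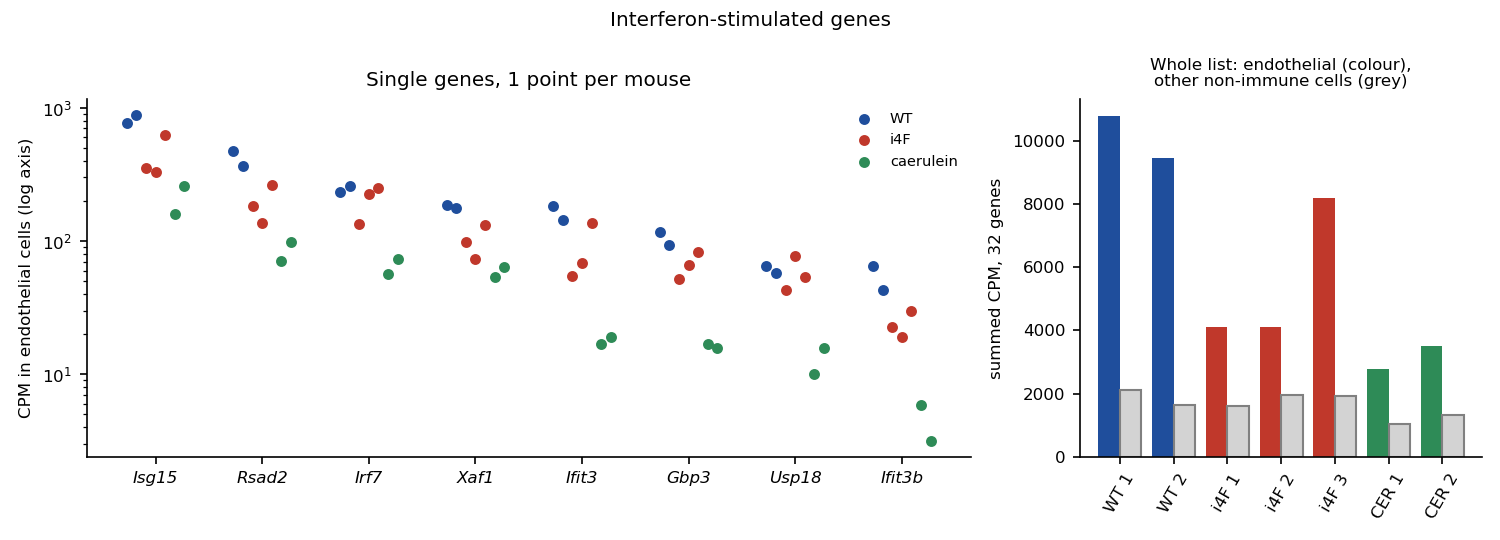
Left, CPM of the 8 interferon-stimulated genes called lower in caerulein mice (log axis), 1 point per mouse in WT (blue), i4F (red) and caerulein (green) endothelial cells. Right, summed CPM of the 32 listed genes in endothelial cells (colour) and other non-immune cells (grey) of each mouse. The caerulein points lie below the WT points for each gene, and i4F mouse 3 lies nearer to WT than i4F mice 1 and 2 in the sum.

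Other lists held at most 1 gene each that was lower in caerulein than in WT endothelium (0.564% of all genes). Emcn fell from 2575 and 2496 CPM to 875 and 1193 CPM (-1.22 ± 0.249 (SE), edgeR adjusted p = 0.0297), with 1327, 1109 and 1236 CPM in i4F mice. It was the only one of the 5 marker genes that passed, and it did so in 11 of 21 alternatives. Kdr was at 1552 and 1768 CPM in WT, 623 and 1114 CPM in caerulein and 447, 654 and 800.1 CPM in i4F mice, with an edgeR adjusted p of 0.218 and 0.0986. Kitl fell from 643 and 614 to 169 and 257 CPM (-1.50, edgeR adjusted p = 0.0225), and the growth factor Tgfb2 from 44.8 and 61.7 to 5.03 and 6.35 CPM (-3.17, edgeR adjusted p = 0.0403). The Wnt receptor partner Tspan12 (-1.19), the caveolin Cav2 (-1.84), the ephrin receptor Epha4 (-2.24), the lysophosphatidic acid receptor Lpar6 (-1.34) and the junction protein Jam3 (-2.04) fell as well. Over 21 alternatives Epha4 passed in 15, Kitl and Tgfb2 in 14, Cav2, Lpar6 and Jam3 in 13 and Tspan12 in 11, and each was lower in caerulein mice in all 21. Without cells holding a pan-leukocyte UMI none of these 7 genes passed, nor did Emcn, with edgeR adjusted p from 0.0985 to 0.214. Over the 21 alternatives, this one included, the log2 change ran from -1.36 to -0.98 for Emcn and -1.42 to -1.03 for Tspan12. It ran from -1.51 to -0.99 for Lpar6, -1.73 to -1.22 for Kitl and -2.15 to -1.51 for Cav2. For Jam3 it was -2.29 to -1.75, for Epha4 -2.35 to -2.19 and for Tgfb2 -3.47 to -2.93. In the endothelial cells as named the macrophage list was higher in caerulein mice, at 71.6 and 73.1 CPM in WT against 7626 and 5275 CPM. The part of cells holding a pan-leukocyte UMI in the calls was not tested further. Low genes among the 10 with the largest fall were the aryl hydrocarbon receptor target Cyp1a1 (42.9 and 86.9 CPM against 0 and 3.17 CPM), the lipoxygenase Alox12 (40.1 and 62.6 against 6.71 and 9.52 CPM), Spaar (30.5 and 29.2 against 4.19 and 3.17 CPM), AU020206 (34.8 and 29.7 against 6.71 and 0 CPM) and the helicase Brip1 (53 and 36.6 against 7.55 and 6.35 CPM). Rtp4, which interferon is known to induce and which is not in the list, completed them at 313 and 224 against 41.9 and 47.6 CPM. Capillary genes did not pass in either comparison, although 7 of 10 were lower in every mouse of each condition (31.5% of all genes in caerulein and 21.9% in i4F). The list summed to 12160 and 15658 CPM in caerulein and 12635, 13173 and 16757 CPM in i4F mice. Car4 stood at 862 and 917 CPM in WT, 138 and 203 CPM in caerulein and 191, 189.7 and 680.4 CPM in i4F mice (edgeR adjusted p = 0.0845 and 0.275).

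Of the 9 genes higher in WT than in i4F endothelium, Rgs5 changed most among those of more than 100 CPM in WT, from 146 and 185 CPM to 6.81, 13.9 and 22.1 CPM (-3.36 ± 0.394 (SE), edgeR adjusted p = 0.0151), with 141 and 203 CPM in caerulein mice. The 43 cells of the Gsn, Dcn and Rgs5 cluster held most WT UMIs of Rgs5, and their part in this call was not tested. Jam3 fell from 386 and 293 to 40.8, 80.1 and 104 CPM (-2.05 ± 0.368 (SE), edgeR adjusted p = 0.0472) and the endothelial lectin Clec14a from 552 and 582 to 90.8, 124 and 187 CPM (-1.98 ± 0.326 (SE), edgeR adjusted p = 0.0361). Cyr61, a matricellular protein, fell from 731 and 579 to 129, 149.7 and 212 CPM (-1.90), and Brip1 from 53 and 36.6 to 4.54, 6.96 and 5.20 CPM (-2.88). Filip1 fell from 125 and 110.5 to 20.4, 31.3 and 42.9 CPM (-1.76), and Samd12 from 92.6 and 84.5 to 15.9, 10.4 and 28.6 CPM (-2.12). Hrct1 fell from 43.9 and 63 to 13.6, 10.4 and 9.11 CPM (-2.23). In all 9 the WT mice lay above every i4F mouse, which held for 21.9% of all genes. The 9 had been called by a test on the same mice, so this adds no support. These calls depended on the settings: of 20 alternatives Rgs5 passed in 18, Brip1 in 16, Cyr61 in 12 and Jam3, Clec14a, Filip1, Samd12 and Hrct1 in 9 each, and each of these genes was lower in i4F mice in all 20.

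Some genes that were lower in WT endothelium belong to lists of other cells. The transgene rtTA had no UMI in WT endothelial cells and 40.8, 64.4 and 82 CPM in the i4F mice (at least 47.1-fold, against a floor of 3 counts per WT library). All 10 macrophage and all 6 pan-leukocyte genes were lower in WT than in caerulein mice (3.54% of all genes), and 3 and 2 of them than in i4F mice (0.699% of all genes). The summed macrophage list was at 71.6 and 73.1 CPM in WT, 7626 and 5275 CPM in caerulein and 1066, 950.3 and 225 CPM in i4F endothelial cells. Without cells holding a pan-leukocyte UMI, 7 genes were higher and 1 lower in caerulein mice, and 22 higher and 3 lower in i4F mice. With Scrublet doublets removed, 144 were higher and 24 lower in caerulein mice, and 54 higher and 13 lower in i4F mice. The genes with the largest rise in caerulein mice were Ms4a6d, Aif1, S100a9, Il10, Gpnmb, Mpeg1, Wfdc17, Ube2c, Cd53 and Ccl6, most of them genes of myeloid cells. Ms4a6d had no UMI in WT and 138 and 95.2 CPM there, at least 88.2-fold. In i4F mice S100a9 (52.2, 127 and 11.7 CPM), Cd53 (11.3, 13.9 and 10.4 CPM), Ccl6 (195, 162 and 41.6 CPM), Tnf (27.2, 74.8 and 9.11 CPM) and AA467197 (152, 59.2 and 27.3 CPM) rose from at most 1.91 CPM in WT. S100a9 passed in 7 of 19 alternatives, Cd53 in 12 of 18, Ccl6 in 15 of 20, Tnf in 9 of 19 and AA467197 in 12 of 20, and each was higher than in WT in all of them. The lymphatic genes were the second such group: 4 of 7 rose in i4F (0.699% of all genes) and 5 of 7 in caerulein mice (3.54%). Lyve1 (chr7:110850607-110863239) was at 1.43 and 3.25 CPM in WT, 304, 231 and 329 CPM in i4F and 130.0 and 146 CPM in caerulein mice (log2 6.92 and 5.86). The lymphatic cells have a cluster of their own only in WT, and with that cluster added to the WT cells the log2 difference of Lyve1 was -0.058 and -1.13. Reln (68.1, 48.7 and 49.4 CPM in i4F mice) and Nts (86.2, 19.1 and 41.6 CPM) rose too. With the lymphatic cluster added, neither passed in either comparison, while Mmrn1 in caerulein mice still did.

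Of the acute phase and inflammation list 3 of 20 genes rose in i4F mice (0.699% of all genes) and 4 of 20 in caerulein mice (3.54%), and of the endothelial transcription factors 1 of 24 in each, Maf. Both comparisons use the same WT mice. Lrg1, a venous and acute phase gene, was at 147 and 61.3 CPM in WT, 1978, 2445 and 592 CPM in i4F and 1492 and 1238 CPM in caerulein mice (4.08, edgeR adjusted p = 0.0340, and 3.84, adjusted p = 0.0128). The transcription factor Maf went from 11.5 and 8.94 CPM in WT to 59, 55.7 and 55.9 CPM in i4F and 52.8 and 50.8 CPM in caerulein mice (2.55 and 2.46 on the log2 scale). Lcn2 (7.16 and 6.91 CPM in WT), Serpina3n (0.954 and 4.87 CPM), the granulocyte growth factor Csf3 (5.73 and 5.28 CPM), Ptgs2 (0 and 0.812 CPM) and Ehd1 (26.2 and 32.5 CPM) rose in both conditions too. Lcn2 rose to 281, 721 and 398 CPM in i4F and 86.4 and 41.3 CPM in caerulein mice. With the lymphatic cluster added to the WT cells, the log2 difference of Lcn2 was 2.22 in i4F (edgeR adjusted p = 0.0892) and -0.54 in caerulein mice (edgeR adjusted p = 0.624). That of Maf was then 0.57 and 0.45 (edgeR adjusted p = 0.285 and 0.408), and that of Serpina3n 3.61 and 2.17 (edgeR adjusted p = 0.0606 and 0.151), so that these 3 genes passed in neither comparison. Lrg1 passed in 10 of 20 alternatives for i4F and in 18 of 21 for caerulein, and Ehd1 in 8 of 20 and 17 of 21, always higher than in WT. In cells of any cluster with 2 of the 5 markers Ptgs2 did not pass either (1.85 and 1.86, edgeR adjusted p = 0.203 and 0.242). The venous genes other than Lrg1 did not pass. Selp was at 239.5 and 66.6 CPM in WT, 170.2, 409 and 288 CPM in i4F and 176 and 162 CPM in caerulein mice (edgeR adjusted p = 0.317 and 0.819), and the groups overlapped.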

How the data were processed

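Single cells of pancreas from 7 mice were profiled by 3′ single-cell RNA sequencing, with 1 library per mouse. According to the methods, the authors aligned reads to mm10 with Cell Ranger, removed free RNA with SoupX, excluded cells of few genes or of high mitochondrial share, and clustered the cells of each condition in Seurat. The authors deposited UMI counts per gene and cell, unnormalized, together with cluster names and the percent of mitochondrial counts per cell as deposited in the metadata. Whether SoupX preceded the deposited counts is not given in the sources used here, and free RNA that it left or took away would move the low values most. Versions of Cell Ranger and SoupX are not given in the sources used here.

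From the counts, CPM were computed over the summed UMIs of named cells of a mouse. Genes were read as higher or lower in WT cells from folds with 20 CPM added, among genes of at least 50 CPM (lists, a mean of at least 10 CPM). Shares of cells with a UMI were also taken after thinning each cell to 1000 or 300 UMIs. Re-clustering used Seurat 5.3.0 (R 4.3.3) with 3000 variable genes. A cluster was called like a cell type only where at least 2 of its first 10 genes, and at least 3 detected genes, were markers of that type.

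Conditions were compared over mice with edgeR 4.0.16 (quasi-likelihood, TMM, filterByExpr, 3 groups in one fit, adjusted p under 0.05), with DESeq2 1.42.0 as an alternative. Shares were compared by exact permutation over all arrangements of the mice, and their exact binomial intervals were taken with scipy 1.17.1. Depth was 2095947 and 2461759 UMIs in WT, 440769 to 768676 in i4F and 1192086 and 315054 in caerulein endothelial cells, so the second caerulein mouse was the least precise. In counts simulated from these mice, with 200 changed genes among 7788, the i4F comparison recovered 121 with 7 false calls and the caerulein comparison 103 with 7 false calls. The changes were of several sizes and were placed only in genes of higher mean counts, so these numbers do not hold for low genes. Whether cultures or litters were shared is not stated, and p-values measure the spread between mice.

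The cells, gene lists and tests were chosen with earlier results of these data known. Genes are named as the 20 furthest over other WT cells, up to 10 per cluster and direction, up to 5 per WT mouse, up to 10 per condition and direction among genes of more than 4 log2 CPM, up to 4 of the highest per list, and list members past the threshold. Vwf, Sele, Prox1, Cd36, Mcm3, Hbegf, Fzd4, Cavin3, Car4 across conditions, Jun and Hspa1a across mice and a few others were chosen after their values were seen. A few genes that this rule names are not reported here. Coordinates of genes are those of a GRCm38 annotation with Ensembl identifiers, and those of promoters are from RefSeq. Same-numbered mice of WT and each condition did not deviate together (Pearson's r -0.04 and -0.03 for WT and i4F, -0.29 for WT and caerulein, across 8153 genes), and for i4F and caerulein r was 0.126 and -0.00488. With 2 mice each in WT and caerulein, the differently numbered pairs must take the opposite sign (0.29). For these groups the check therefore cannot tell whether mice are paired.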

Additional observations from a re-analysis of the deposited data

Results flagged for a closer look

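Of the 8 interferon-stimulated genes that were lower in caerulein than in WT endothelium, 7 also fell more there than in the other non-immune cells of the same mice. The difference between these log2 changes, tested in edgeR with the mouse as a term and chosen after the data were seen, was -2.43 for Rsad2 (edgeR adjusted p = 8.44e-06), -2.30 for Isg15 (0.000150), -2.20 for Gbp3 (0.00116), -2.08 for Ifit3 (0.000828), -1.98 for Ifit3b (0.0336), -1.54 for Irf7 (0.00400) and -1.53 for Usp18 (0.0480). They are listed because the summed endothelial cells and the pooled other non-immune cells differed in their change under the same contrast. The pool holds several cell types. The part of a change in its mix, or in the mix of cells named endothelial, was not tested. In that test 7.16% of 16281 genes differed in either direction, but those genes were not chosen by their endothelial change. The 8 genes were chosen by a fall in the same endothelial counts, which favours a more negative difference. The 7 calls are therefore no separate support for that fall. The labels name doxycycline for WT and not for caerulein mice, and the libraries of WT mouse 1 belong to another library name series than those of the caerulein mice.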

How the results depend on the processing

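The share of endothelial cells was lower in i4F and caerulein mice under each of the alternatives run, by a log2 ratio of -1.96 and -2.56 in edgeR on cell numbers and of -2.42 and -2.58 with a replicate block. The number of genes higher and lower in i4F (57 and 9) became 231 and 44 with DESeq2, 82 and 28 without TMM, 542 and 340 without a filter on low counts, 13 and 2 with the 2 groups alone, 417 and 392 with a replicate block, 43 and 3 with the library name series as a term, 73 and 16 in cells of at least 500 genes, 4 and 0 in cells with 2 of the 5 markers, 14 and 4 with lymphatic cells added, 22 and 3 without cells holding a pan-leukocyte UMI, and 8 to 636 and 0 to 587 with 1 mouse left out. For caerulein (289 and 46) the counts were 355 and 77 with DESeq2, 280 and 106 without TMM, 765 and 447 without a filter, 528 and 289 with the 2 groups alone, 404 and 235 with a replicate block, 101 and 8 with the series as a term, 144 and 24 without Scrublet doublets, 115 and 13 in cells with 2 markers, 7 and 1 without pan-leukocyte UMIs, and 23 to 582 and 0 to 363 with 1 mouse left out. In the replicate block i4F mouse 3 is the only mouse of its number, so it does not enter the i4F change. The cause of these shifts was not tested. Alternatives chosen after seeing the data were to leave out Endothelial_2 of WT, with 111 and 28 for i4F and 359 and 75 for caerulein, and a crossed replicate block for caerulein, with 1206 and 803. Some lymphatic genes changed sign, whereas Pdpn stayed positive in both conditions and Mmrn1 in caerulein mice. The alternative of cells with 2 of the 5 markers takes cells of any cluster. In WT it held 807 and 1195 cells, of which 719 and 1046 were in the endothelial clusters. In cells with 2 of the 5 markers the log2 change to i4F was -1.51 for Ccl21a, -0.30 for Lyve1, -0.071 for Nts and -0.10 for Reln, and to caerulein -2.72, -1.63, -0.79 and -2.12. With the lymphatic cluster added to WT it was -1.18 for Ccl21a and -0.058 for Lyve1 in i4F (Nts and Reln stayed positive and did not pass), and -1.78 for Ccl21a, -1.13 for Lyve1, -0.75 for Nts, -1.23 for Reln and -0.54 for Lcn2 in caerulein mice. The marker ratio of 6.04 was 6.22 without Scrublet doublets, 6.21 with 5 CPM added and 5.58 as a mean over cells, and the venous ratio of 3.14 was 3.81 in cells of at least 500 genes and 2.40 as a mean over cells. A resolution of 0.5 gave 9 clusters in place of 6. With 2 or 3 mice a group, and few UMIs per cell in Endothelial_2, a p that misses the threshold does not show that a gene did not change.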
